A study of Homo sapiens with 12 samples.

Results

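The CCT chaperonin, also called TRiC, is built from 8 subunits encoded by separate genes, TCP1, CCT2, CCT3, CCT4, CCT5, CCT6A, CCT7 and CCT8. These 8 genes were followed through every library of a study of girolline, by 1 coding transcript each, out of 93916 transcripts with a coding length in the RNA-seq and disome tables and 100283 in the monosome tables. The rule takes them by name, as the subunits of 1 complex, and uses no measured value, though it was set with earlier results of these data known. The transcripts encode proteins of similar length, from 531 residues for CCT6A to 556 for TCP1.

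CCT is a double ring of stacked subunits that encloses newly made proteins in the cytosol and folds them with the energy of ATP. Actin and the tubulins depend on it, and so do many proteins with repeats of the WD type, which fold into propellers. Each ring holds 1 copy of every subunit at a fixed place, so the complex needs all 8 products side by side. Within the ring, CCT2, CCT4 and CCT5 belong to the side that binds ATP strongly, and CCT3, CCT6A and CCT8 to the side that binds it weakly.

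The libraries came from wild-type HEK293T Flp-In cells. This line derives from human embryonic kidney and carries a site where genes can be inserted by recombination. Cells received the solvent DMSO, girolline at 1 µM or girolline at 10 µM, in every case for 2 h. Girolline is a compound from a marine sponge, and the title of the series ties its action to eIF5A, a factor that helps ribosomes through slow stretches of coding sequence. For each treatment the study sequenced poly(A) RNA, monosome footprints (mRNA fragments shielded by a single ribosome) and disome footprints (longer fragments shielded by 2 ribosomes in contact). Each of these 3 kinds of library had 2 DMSO libraries, 1 library at 1 µM and 1 at 10 µM. Whether separate cultures gave the paired DMSO libraries is not in the labels. The p-values therefore reflect the spread among these libraries alone, which may be technical.

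RNA-seq libraries held 28424272 to 42194871 counts, those of monosomes 21570489 to 38074691, and those of disomes 3091715 to 5769026. The DMSO pair of each kind differed by more than sampling noise, with a chi-square per degree of freedom of 6.62 for mRNA, 1.71 for monosomes and 2.09 for disomes. Markers of other cell types, the partners of CCT such as prefoldin, and its client proteins were not analysed here, since 0 of the tables used pair the transcript IDs with gene symbols.

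RefSeq places TCP1 (the alpha subunit) on chromosome 6 at 159778498 to 159789602, CCT2 (beta) on chromosome 12 at 69585459 to 69601570, CCT3 (gamma) on chromosome 1 at 156308968 to 156338292 and CCT4 (delta) on chromosome 2 at 61868085 to 61888671. CCT5 (epsilon) lies on chromosome 5 at 10249921 to 10266412, CCT6A (zeta) on chromosome 7 at 56051765 to 56063989, CCT7 (eta) on chromosome 2 at 73234308 to 73253005 and CCT8 (theta) on chromosome 21 at 29056326 to 29073648, all in build GRCh38.p14. In the monosome tables their transcripts are, in the order just given, ENST00000321394.12, ENST00000299300.11, ENST00000295688.8, ENST00000394440.8, ENST00000280326.9, ENST00000275603.9, ENST00000258091.10 and ENST00000286788.9. The deposited lengths are coding lengths, so counts refer to the coding exons. RefSeq lists 16 pseudogenes that carry the symbols of 7 of the 8 subunits, with 5 for CCT6A and 0 for CCT2. How reads that match a pseudogene were treated is not given in the sources used here, so the levels of those 7 genes are uncertain to that extent. Other genes overlap the loci of TCP1 (ACAT2, SNORA20 and SNORA29), CCT3 (TSACC), CCT4 (LOC124907773 and COMMD1) and CCT6A (SNORA22B and SNORA15), and whether strand was used in counting is not stated.

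Levels are given as CPM, which is each count as a share of its library's total, scaled to 1000000 and by TMM (edgeR's correction for libraries dominated by a few genes), and are compared between genes only per 1000 counted codons. In RNA-seq, CCT5 was the most abundant subunit mRNA and CCT6A the least in all 4 libraries, with 707, 711, 669 and 708 CPM per 1000 codons for CCT5 in DMSO 1, DMSO 2, 1 µM and 10 µM. CCT6A had 262, 285, 268 and 249. The other 6 subunits lay between them, and CCT4 was second lowest throughout. CCT2 and CCT7 changed places between the DMSO libraries, and so did CCT3 and CCT8, so these neighbours did not differ beyond their spread.

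TCP1 stood apart in the ribosome footprints of untreated cells. Its mRNA lay in the upper part of the order, below CCT5, CCT3 and CCT8, at 499 and 567 CPM per 1000 codons in DMSO 1 and DMSO 2, yet it had the lowest monosome level of the 8, at 278 and 269. The next lowest, CCT6A, had 319 and 310 and did not overlap with TCP1. The ratio of monosome to mRNA level per codon was 0.557 and 0.474 for TCP1 in the DMSO libraries, while the other 7 subunits lay between 0.978 (CCT5) and 1.32 (CCT2). In the disome libraries TCP1 was lowest again, at 171 and 179 CPM per 1000 codons, against 209 and 235 for CCT6A and 625 and 588 for CCT8.

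**Figure D1:**
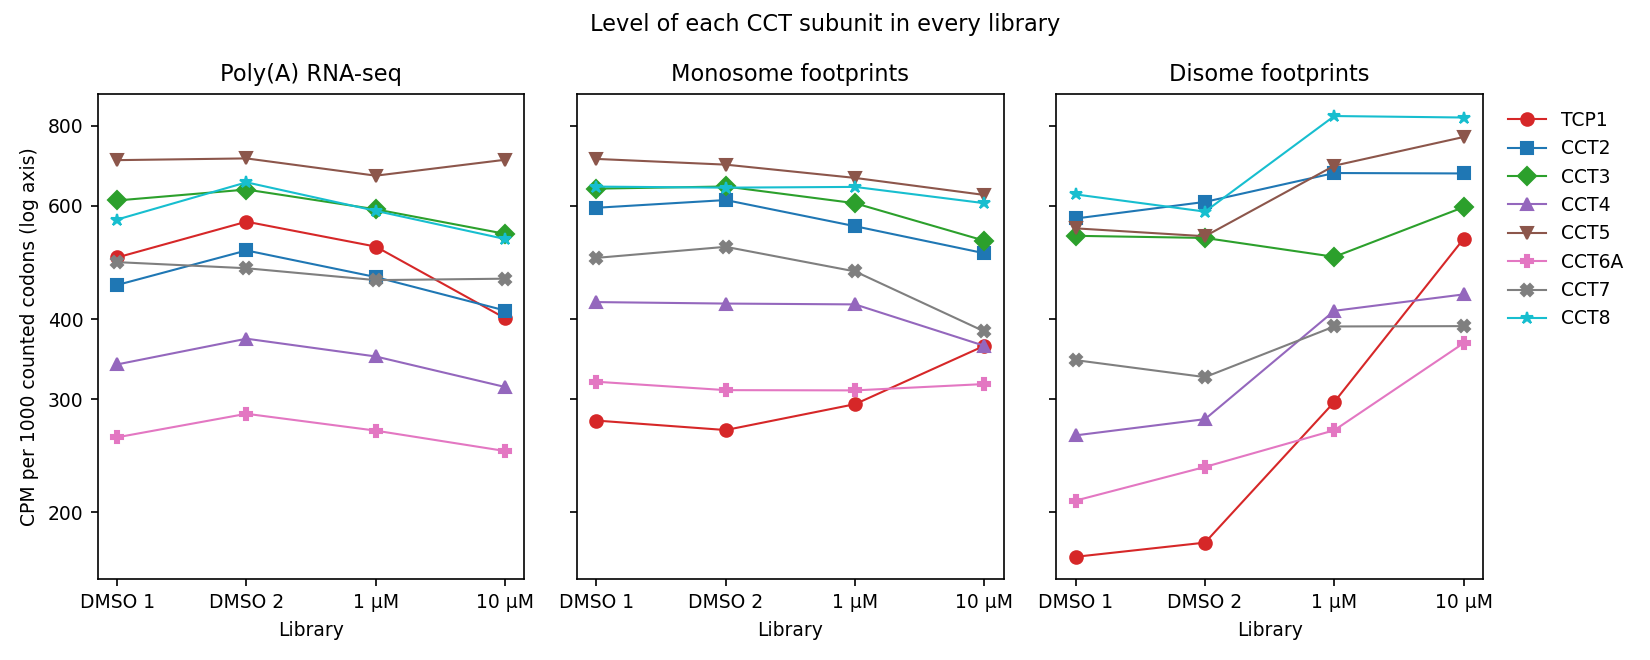
Level of each subunit, in CPM per 1000 counted codons on a log axis, in every RNA-seq, monosome and disome library; each point is 1 library and lines join the points of 1 gene. TCP1 starts lowest in the footprint panels (278 and 269 in monosome, 171 and 179 in disome DMSO libraries) and reaches 363 and 533 at 10 µM.

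Whether subunit mRNAs changed within the 2 h of treatment was compared first. None passed the test at either dose, and 10 µM values were lower than both DMSO libraries for 7 of the 8 genes, with CCT5 in between. TCP1 mRNA had 268 and 305 CPM in DMSO 1 and DMSO 2, 278 at 1 µM and 215 at 10 µM. The 10 µM library lay below the other 3, which overlapped. The log2 fold change of TCP1 at 10 µM was -0.41 (SE 0.16), with an unadjusted p of 0.0120 and an adjusted p of 0.265 in the quasi-likelihood test of edgeR, adjusted over all rows tested by the Benjamini-Hochberg method. A call means an adjusted p under 0.05 in that test here and below, unless another fit is named.

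The other 7 mRNAs ranged from -0.22 for CCT2 to -0.0026 for CCT5 on the log2 scale at 10 µM. The median of the 8 was -0.19, beside -0.01 over all 56229 rows tested. The test called 0 of the 8, where 1.11% of all rows were called in either direction, 1 subunit had an unadjusted p under 0.05 and DESeq2 called 0. In a fit of all 12 libraries, TCP1 mRNA was called lower with an adjusted p of 0.0461. That fit called 613 of 36048 rows higher and 811 lower. Without RNA-seq DMSO 1 its log2 fold changes were -0.495 for TCP1 and -0.307 for CCT2. Without DMSO 2 they were -0.323 and -0.141. Leaving out a DMSO library leaves its kind without a replicate, and the spread then comes from the other kinds. Calls gained or lost in such fits, here and below, also reflect that borrowed spread.

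At 1 µM the 8 mRNAs lay between -0.08 and -0.03 on the log2 scale. The test called 0 of 8, as it called 0% of all rows (557 of 56229 had an unadjusted p under 0.05), with 0 subunits at an unadjusted p under 0.05 and 0 called by DESeq2. Between 10 and 1 µM it called 0 subunits and 0.427% of all rows, with 1 subunit, TCP1, at an unadjusted p under 0.05 and 0 called by DESeq2. TCP1 had a log2 difference of -0.37 there, and was not called in the fit of all 12 libraries (adjusted p = 0.215). Its log2 difference in that fit was -0.375, with either RNA-seq DMSO library left out as well.

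Monosome footprints, which report where single ribosomes sit on mRNA, moved apart between subunits at 10 µM. TCP1 rose and 5 subunits fell, namely CCT7, CCT3, CCT2, CCT4 and CCT5. TCP1 had 152 and 147 CPM in the DMSO libraries, 161 at 1 µM and 199 at 10 µM. Both doses lay above both DMSO libraries. The log2 fold change of TCP1 was 0.41 at 10 µM (SE 0.06, adjusted p = 1.2e-08 by edgeR), with 0.11 at 1 µM (adjusted p = 0.502).

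CCT7 moved as far the other way. It had 266 and 277 CPM under DMSO, 253 at 1 µM and 204 at 10 µM, for a log2 fold change of -0.41 at the higher dose (SE 0.06, adjusted p = 1.0e-08). CCT3 had 342 and 345 CPM under DMSO, 325 at 1 µM and 284 at 10 µM, giving a log2 fold change of -0.27 at 10 µM (adjusted p = 4.84e-05). Both genes lay lower at 10 µM than in any other library.

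CCT2, CCT4 and CCT5 fell as well. CCT2 had 314 and 322 CPM under DMSO, 293 at 1 µM and 266 at 10 µM, giving a log2 fold change of -0.26 at 10 µM (adjusted p = 0.000181). CCT4 had 225 and 224 CPM under DMSO, 223 at 1 µM and 193 at 10 µM, giving a log2 fold change of -0.22 (adjusted p = 0.00167). CCT5 had 378 and 370.1 CPM under DMSO, 353 at 1 µM and 332 at 10 µM, giving a log2 fold change of -0.17 (adjusted p = 0.0118). In each of the 3 the 10 µM library was the lowest of the 4. The other 2 subunits were not called. CCT8 had 347 and 345 CPM under DMSO, 346 at 1 µM and 327 at 10 µM (log2 fold change -0.08, adjusted p = 0.266). CCT6A had 167 and 162 CPM under DMSO, 162 at 1 µM and 165 at 10 µM, and its groups overlapped.

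Among all 55409 monosome rows tested at 10 µM, 16.5% were called higher and 15.7% lower, beside 1 and 5 of the 8 subunits. The median of the subunits was -0.20 and that of all rows 0.01 on the log2 scale. Among rows of 500 to under 600 codons, the class that holds all 8, 17.8% were called higher and 16.9% lower. At 1 µM the test called 0 of 8 subunits and 1.73% of all rows in either direction, where 1 subunit, CCT2, had an unadjusted p under 0.05 and DESeq2 called 0. Against 1 µM, the 10 µM library was called higher for TCP1 (log2 difference 0.30, adjusted p = 0.00123) and lower for CCT7 (-0.31, adjusted p = 0.000483), CCT4 (-0.21, adjusted p = 0.025) and CCT3 (-0.19, adjusted p = 0.0363). The corresponding shares of all rows were 5.73% higher and 6.29% lower. With rows of at least 10 CPM on average alone, 1852 of 13934 were higher and 1669 lower.

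The biological coefficient of variation in the monosome fit, which comes from the DMSO pair, was 3.85%. In the fit of all 12 libraries, only TCP1 was called higher (adjusted p = 0.0116) and only CCT7 lower (adjusted p = 0.0147) at 10 µM. When that fit left out monosome DMSO 1, the log2 fold changes were 0.45 for TCP1 and -0.43 for CCT7. Without monosome DMSO 2 these were 0.40 and -0.37. Either omission left monosomes without a replicate, so the spread came from the RNA-seq and disome pairs. Whether the calls depend on 1 monosome DMSO library was therefore not tested. DESeq2 called TCP1 higher and 4 subunits lower at 10 µM, and 0 higher and 1 lower against 1 µM. With rows of at least 10 CPM on average alone, 3 subunits and 3542 of 13934 rows were called lower at 10 µM. TCP1 and 3743 of those rows were called higher. All subunits had higher log2 fold changes in that setting, which also changes the TMM scaling. CCT4 (-0.13) and CCT5 (-0.08) were no longer called, CCT7 had -0.32 and TCP1 0.50. The size of the falls therefore depends on the rows used for scaling. With both doses taken as 1 group, 0 were called in either direction (adjusted p = 0.281 for TCP1), as were 0 of all 55409 rows.

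Disome footprints, which report pairs of ribosomes in contact, were higher at 10 µM. All 8 subunits lay above both of their DMSO libraries, and 5 of them passed the test, TCP1, CCT4, CCT5, CCT6A and CCT8. TCP1 had 95.0 and 99.96 CPM under DMSO, 165 at 1 µM and 297 at 10 µM, from counts of 297, 538, 767 and 1646. The 4 libraries did not overlap between treatments, and the level rose with dose. The log2 fold change was 0.76 at 1 µM (SE 0.17, adjusted p = 0.000422 by edgeR) and 1.60 at 10 µM (SE 0.16, adjusted p = 6.52e-21), a level 3.04 times that of DMSO. Of all 34606 disome rows tested at 10 µM, TCP1 was at the 91.2nd percentile of the fold change.

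CCT4, a subunit that contacts actin during folding, had 142 and 151 CPM under DMSO, 222 at 1 µM and 236 at 10 µM. Its doses lay well above the DMSO pair and close to each other. The log2 fold change was 0.60 at 1 µM (adjusted p = 0.00686) and 0.68 at 10 µM (adjusted p = 0.000163). CCT5 had 300.1 and 292 CPM under DMSO, 376 at 1 µM and 416 at 10 µM, with log2 fold changes of 0.34 (adjusted p = 0.144) and 0.49 (adjusted p = 0.00309).

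CCT8 and CCT6A were the other subunits called at 10 µM. CCT8 had 343 and 323 CPM under DMSO, 455 at 1 µM and 452 at 10 µM, with log2 fold changes of 0.45 at 1 µM (adjusted p = 0.0276) and 0.44 at 10 µM (adjusted p = 0.00725). CCT8 had nearly the same level at both doses, and its DMSO pair lay below them. CCT6A had 111 and 125 CPM under DMSO, 143 at 1 µM and 195 at 10 µM, with log2 fold changes of 0.27 (adjusted p = 0.41) and 0.72 (adjusted p = 0.000148).

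The 3 remaining subunits were not called at either dose. CCT7 had 188 and 177 CPM under DMSO and 212 at both doses. CCT2 had 307 and 326 CPM under DMSO, 362 at 1 µM and 361 at 10 µM. CCT3 had 294 and 292 CPM under DMSO, 273 at 1 µM and 326 at 10 µM, and was the only subunit below its DMSO pair at 1 µM. Their log2 fold changes at 10 µM were 0.22, 0.19 and 0.15, and the SE of each was between 0.15 and 0.16.

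**Figure D2:**
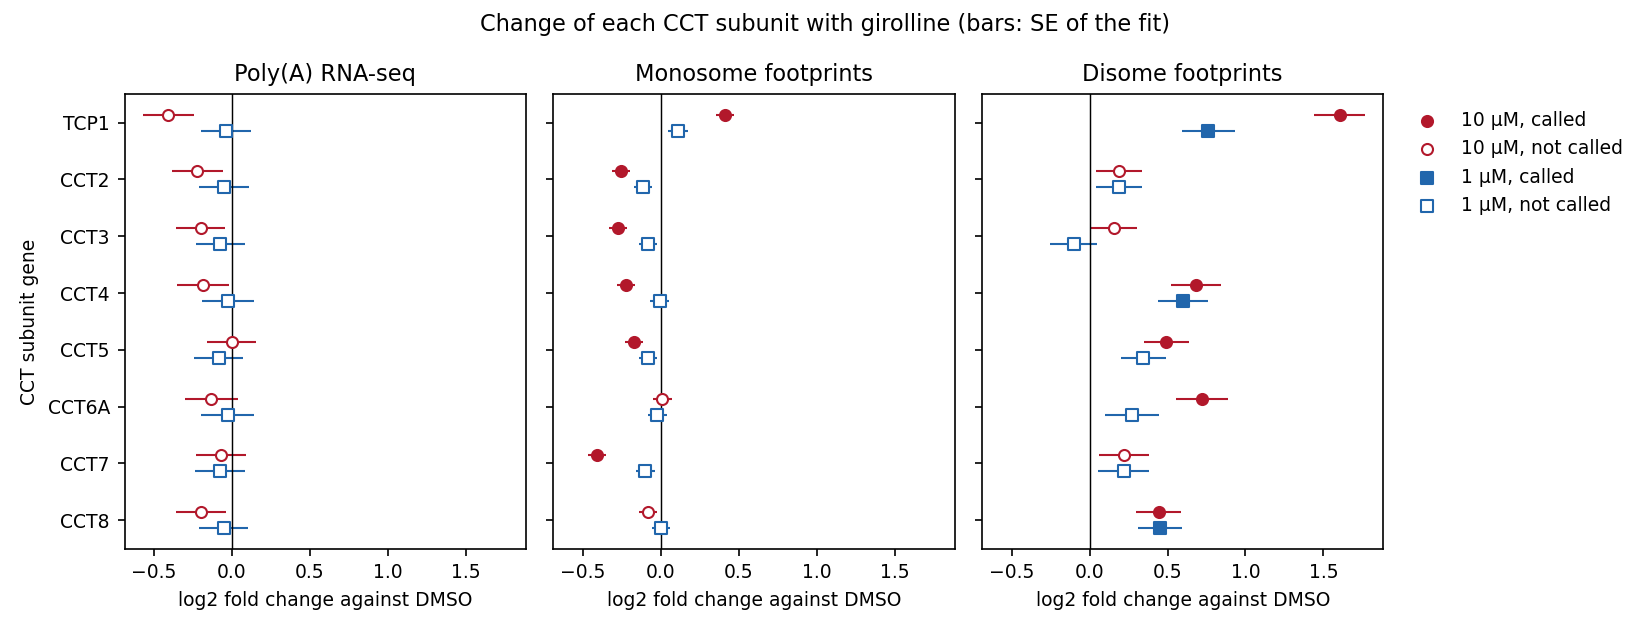
Log2 fold change of each subunit against DMSO in the RNA-seq, monosome and disome libraries at 1 µM (squares) and 10 µM (circles); bars are the standard error of the fit and filled symbols are called at an adjusted p under 0.05. TCP1 at 10 µM has -0.41 in mRNA, 0.41 in monosome and 1.60 in disome footprints.

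The 5 subunits called higher in disome footprints at 10 µM stand beside 20.8% of all rows called higher, and 12.3% of rows of 500 to under 600 codons. With rows of at least 10 CPM on average alone, which the subunits all exceed, 3675 of 12986 rows and the same number of subunits, 5, were called higher. The median log2 fold change was 0.47 for the subunits, -0.02 for all rows and -0.12 for the length class. At 1 µM, 3 of 8 were called higher, TCP1, CCT4 and CCT8, beside 5.4% of all rows. Between 10 and 1 µM, 7.7% of all rows were called higher, and 1689 of 12986 with rows of at least 10 CPM on average alone. Of the subunits only TCP1 was called higher there in the main fit (log2 difference 0.84, adjusted p = 0.000441). In the fit of all 12 libraries CCT6A joined it without disome DMSO 1 (adjusted p = 0.043) and without DMSO 2 (adjusted p = 0.04). DESeq2 called 3 at 10 µM, TCP1, CCT4 and CCT6A, and 0 at 1 µM, where TCP1 had an adjusted p of 0.072. At 1 µM the fit of all 12 libraries lost CCT8 without disome DMSO 2 (adjusted p = 0.085), and CCT5 was called there without disome DMSO 1 (adjusted p = 0.049).

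The ratio comparisons set 1 kind of library against another for the same gene, by an interaction term for kind and dose. They ask whether footprints moved more than the mRNA, or disomes more than monosomes. The RNA-seq and disome tables use other transcript IDs than the monosome tables, so rows were paired by coding length in file order. CCT2, CCT3, CCT6A and CCT8 were paired by the alignment of the tables, and TCP1, CCT4, CCT5 and CCT7 by a length that occurs once within 15 rows of the expected place. All mRNA and disome values of those last 4 genes, above and below, therefore rest on that second way of pairing. So does every ratio of theirs, while their monosome levels do not.

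For monosome to mRNA, TCP1 was the only subunit called at 10 µM. Its ratio of levels per codon was 0.557 and 0.474 under DMSO, 0.569 at 1 µM and 0.906 at 10 µM. The 10 µM value was above the other 3, which overlapped. The log2 change of the ratio was 0.79 (SE 0.15, adjusted p = 0.00186 by edgeR). CCT7 had the lowest value, -0.37 (adjusted p = 0.0885), and the other 6 lay between -0.20 and 0.12. Of all 50324 rows tested, 5.71% were called higher. In a separate fit of rows of at least 10 CPM on average, which the subunits all exceed, 1482 of 11165 rows were higher. At 1 µM the test called 0 subunits and 0.00199% of all rows, with 0 subunits at an unadjusted p under 0.05 and 0 called by DESeq2. The 10 µM call for TCP1 was kept without each RNA-seq or monosome DMSO library in turn, with adjusted p-values of up to 0.014.

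For disome to mRNA at 10 µM, the 5 subunits called in the disome libraries were called again. TCP1 had the largest log2 change of the 8, 2.02 (SE 0.22, adjusted p = 7.46e-18), or 4.06 times the DMSO ratio. CCT4 had 0.88 (adjusted p = 0.000578) and CCT6A 0.86 (adjusted p = 0.0011), followed by CCT8 at 0.65 (adjusted p = 0.00753) and CCT5 at 0.50 (adjusted p = 0.0447). CCT2, CCT3 and CCT7 had 0.42, 0.36 and 0.30 and were not called. Of all 37503 rows tested, 19.4% were called higher. In a separate fit of rows of at least 10 CPM on average, 3009 of 11620 rows were higher. At 1 µM only TCP1 was called (log2 change 0.80, adjusted p = 0.0145), beside 2.85% of all rows. DESeq2 called 3 at 10 µM and 0 at 1 µM. In the fit of all 12 libraries 2 were called at 1 µM, beside 1297 of all 36048 rows called higher. These comparisons share the disome libraries with the results above and are not separate evidence.

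For disome to monosome at 10 µM, all 8 subunits were called higher, beside 16.6% of all 35844 rows and 8.81% of rows of 500 to under 600 codons. In a separate fit of rows of at least 10 CPM on average, which the subunits all exceed, 2779 of 10840 rows were called higher. TCP1 had ratios per codon of 0.614 and 0.668 under DMSO, 1.01 at 1 µM and 1.47 at 10 µM, for a log2 change of 1.18 (SE 0.15, adjusted p = 3.82e-07). It went from among the lowest ratios of the 8 under DMSO to the highest at 10 µM. CCT4 had 0.62 and 0.661 under DMSO, 0.977 at 1 µM and 1.2 at 10 µM, for a log2 change of 0.90 (SE 0.14, adjusted p = 2.02e-05).

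The 6 other subunits had smaller changes that passed the test. CCT6A had a log2 change of 0.70 (adjusted p = 0.000839), CCT5 of 0.66 (adjusted p = 0.00043) and CCT7 of 0.62 (adjusted p = 0.00152). CCT8 had 0.52 (adjusted p = 0.00434), CCT2 0.43 (adjusted p = 0.0181) and CCT3 0.42 (adjusted p = 0.0211). For CCT7, CCT2 and CCT3 the monosome level fell while the disome level was not called. In every subunit the ratio at 10 µM exceeded that of both pairs of DMSO libraries.

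The median change of the disome to monosome ratio was 0.64 for the subunits, -0.01 for all rows and -0.13 for the length class. DESeq2 called 5 of the 8, TCP1, CCT4, CCT5, CCT6A and CCT7. In the fit of all 12 libraries 6 were called, and from 4 to 6 when 1 disome or monosome DMSO library was left out. CCT2 and CCT3 were not called there, with adjusted p-values of 0.061 and 0.056. CCT8 was lost without disome DMSO 2 (adjusted p = 0.071), monosome DMSO 1 (0.094) or monosome DMSO 2 (0.086), and CCT7 without monosome DMSO 2 (0.059). TCP1, CCT4, CCT5 and CCT6A were called each time. With both doses taken as 1 group 0 of the 8 were called (adjusted p = 0.14 for CCT4 and 0.19 for TCP1), as were 0 of all 35844 rows.

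At 1 µM the ratio of disome to monosome was called higher for TCP1 (log2 change 0.65, adjusted p = 0.0107) and CCT4 (0.61, adjusted p = 0.0132), beside 3.36% of all rows. CCT8 and CCT5 had 0.45 and 0.43 with adjusted p-values of 0.0528 and 0.0699. CCT3 was at -0.02, and its ratio of 0.825 lay just under the DMSO values of 0.845 and 0.832. DESeq2 called 0 at this dose. In the fit of all 12 libraries, TCP1 and CCT4 were lost without any 1 of the 4 disome or monosome DMSO libraries, with adjusted p-values of TCP1 from 0.08 to 0.18.

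**Figure D3:**
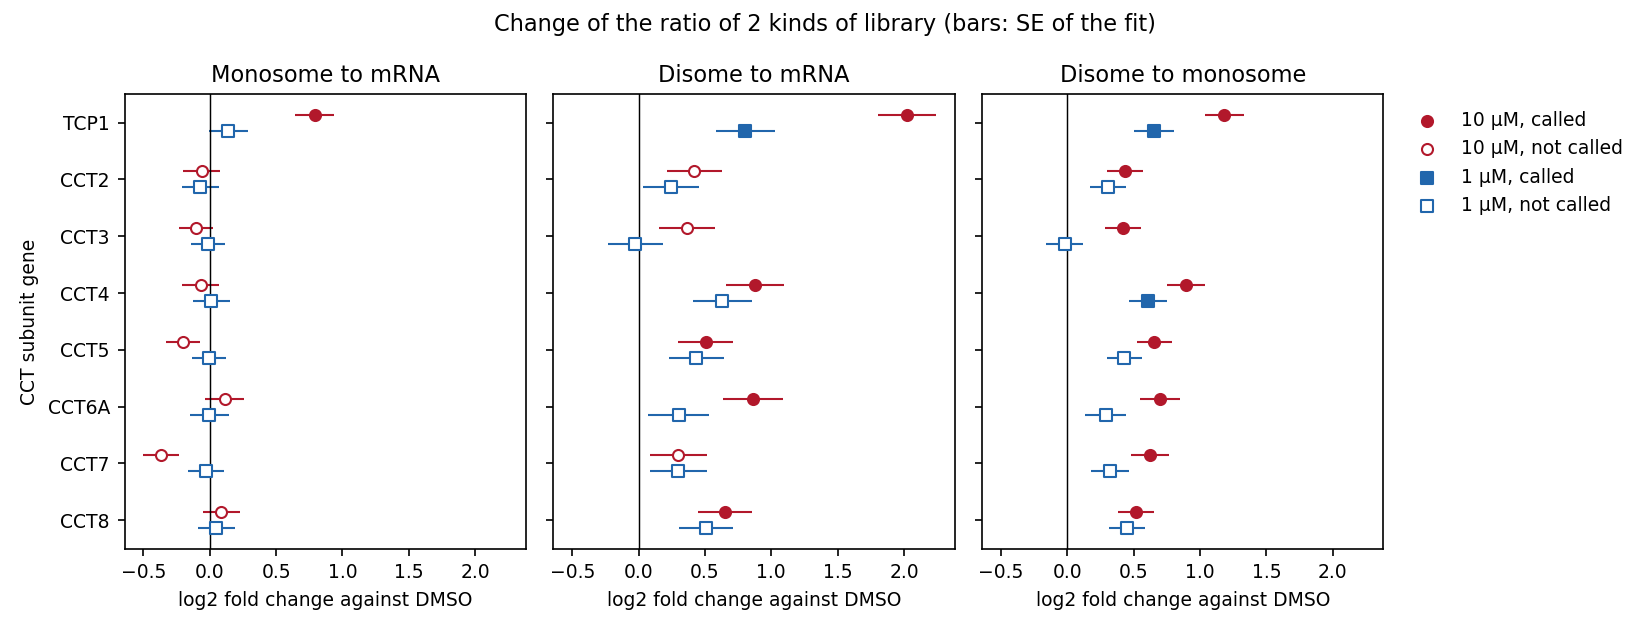
Log2 change against DMSO of the monosome to mRNA, disome to mRNA and disome to monosome ratio for each subunit at 1 µM (squares) and 10 µM (circles); bars are the standard error of the fit and filled symbols are called at an adjusted p under 0.05. At 10 µM all 8 subunits are called for disome to monosome, from 0.42 for CCT3 to 1.18 for TCP1, and only TCP1 for monosome to mRNA.

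**Figure D4:**
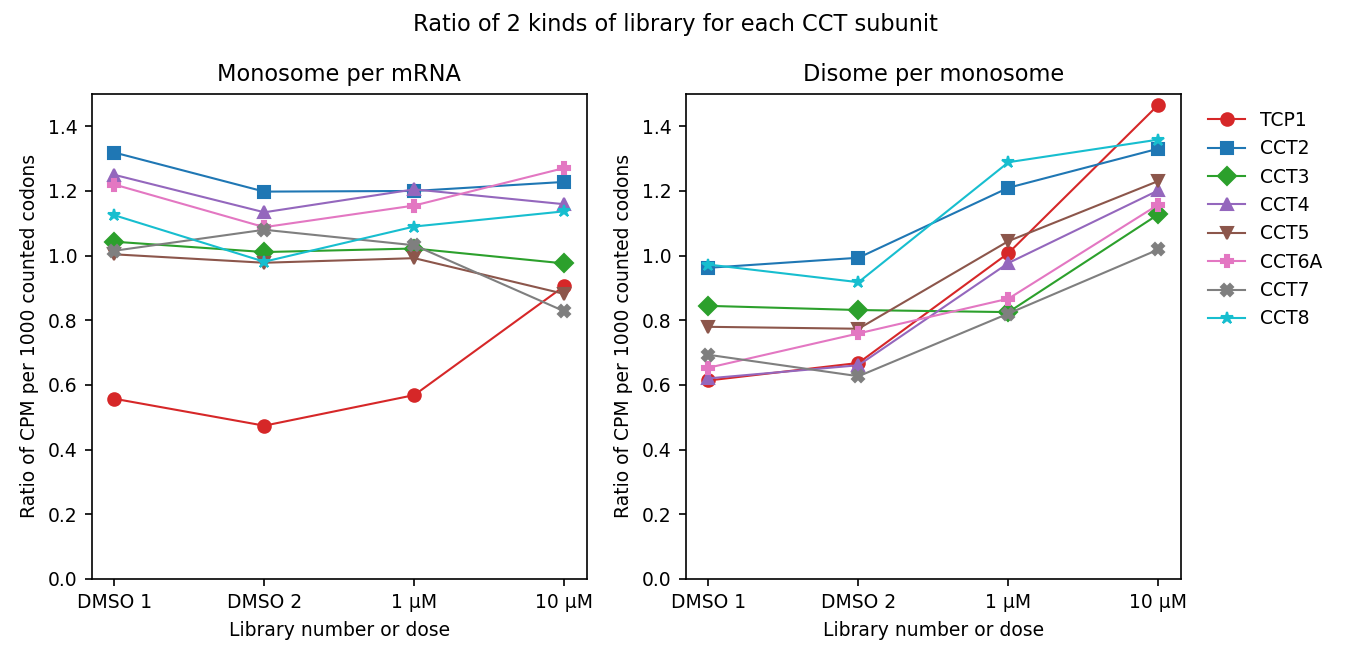
Ratio of monosome to mRNA level and of disome to monosome level, each per 1000 counted codons, for every subunit; points pair libraries of the same treatment and DMSO number. TCP1 has 0.557, 0.474, 0.569 and 0.906 for monosome per mRNA and 0.614, 0.668, 1.01 and 1.47 for disome per monosome.

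The spread of footprint levels between the 8 subunits was smaller at 10 µM than under DMSO, in monosomes only with TCP1 included. The coefficient of variation of the disome level per codon over the 8 was 44.6% and 42.2% in the DMSO libraries, 40.1% at 1 µM and 30.0% at 10 µM. The highest subunit had 3.67 and 3.39 times the lowest under DMSO and 2.25 times at 10 µM. In monosome libraries the coefficient was 31.1% and 31.7% under DMSO, 29.2% at 1 µM and 25.9% at 10 µM, and in RNA-seq 29.2%, 27.6%, 27.2% and 31.8%. Over the 7 subunits without TCP1, the monosome coefficient was 25.4% in both DMSO libraries and 25.7% at 10 µM, so it was not lower there. The disome coefficient over these 7 was 37.7% and 35.6% under DMSO, 37.1% at 1 µM and 32.0% at 10 µM. All of these are descriptions, without a test.

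Summed over the 8 genes, disome footprints came to 1781 and 1786 CPM under DMSO, 2208 at 1 µM and 2496 at 10 µM. The monosome sum was 2190.1 and 2192 CPM under DMSO, 2117 at 1 µM and 1970.0 at 10 µM, and the mRNA sum 2062, 2211, 2051 and 1898. These sums use the TMM scaling of the main fits. The size of the monosome fall at 10 µM depends on the rows used for scaling, as for the single subunits. TCP1 took 5.2% and 5.46% of the disome sum per codon under DMSO, 7.31% at 1 µM and 11.6% at 10 µM. Its share of the monosome sum was 6.77%, 6.53%, 7.43% and 9.84%, and its share of the mRNA sum 12.7%, 13.4%, 13.3% and 11.1%. CPM values are relative to each library's total, so a change in all mRNAs at once would not show, and in these bulk samples fewer cells and less RNA per cell cannot be told apart.

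Across the 8 subunits, the log2 changes of monosome and disome footprints at 10 µM had a Spearman's rho of 0.833, and 0.75 over the 7 without TCP1. The changes of mRNA and disome footprints had 0.0476 over 8 and 0.571 without TCP1. These are descriptions over genes that share libraries, and with so few points 1 gene moves them. The disome change at 10 µM was largest in TCP1, CCT6A and CCT4, the 3 subunits with the lowest disome level per codon in both DMSO libraries, though the change is computed from those same DMSO values.

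Likeness to the typical subunit was measured as the Euclidean distance from the median profile of the 8, over 9 log2 differences (each dose against the DMSO mean and DMSO 2 minus DMSO 1, in each kind) in 10014 paired rows with at least 10 CPM on average in each kind. CCT8 and CCT5 were the nearest subunits, at distances of 0.233 and 0.244, and TCP1 the farthest, at 1.4. Their ranks among the 10014 rows, from the nearest, were 13, 17 and 7075. The profile is the median of these same 8 genes, so the nearness of a subunit to it is partly built in. The nearest rows away from the 8 genes were ENST00000519065.6 (489 codons, distance 0.158) and ENST00000253039.9 (473 codons, distance 0.196), whose symbols are not given in the tables used here.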

How the data were processed

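For each library the authors deposited raw counts per transcript, not normalized, with a length. Per the submitters' processing notes, CASAVA 1.8 and STAR 2.7.0a were used with build hg38, in roles not stated. The counting tool and the handling of strand and of reads that match several places are not given in the sources used here. The length column lies 20 codons under the coding length in RNA-seq and 10 in monosome tables, so part of the coding region was taken to be left out, and levels were divided by that counted length. The 8 subunits, the lists and the tests were chosen with earlier results of these data known. All 8 are named in every comparison.

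The deposited counts were fitted in edgeR 4.0.16 under R 4.3.3 (TMM, filterByExpr, quasi-likelihood test, Benjamini-Hochberg adjustment over all rows, FDR 0.05), after rows with identical counts were merged. All 8 passed the filter in every kind. The fit of a kind had 4 libraries in 3 groups and 1 residual degree of freedom, which takes the single libraries of both doses to vary as much as the DMSO pair. Ratios were fitted over 8 libraries with 6 groups and 2 residual degrees of freedom. Between tables, 76301 rows were paired by aligning coding lengths in file order and 12818 by a length unique within 15 rows. The DMSO levels of monosome and RNA-seq rows had a Spearman's rho of 0.935 over the first and 0.93 over the second. The alternatives were DESeq2 1.42.0, DESeq2 size factors, 2 other filters, 2 treatments of isoform rows, both doses as 1 group, a joint fit of 12 libraries, that fit without each DMSO library, and a replicate block. Pairing by the alignment alone, and leaving TCP1 out of the spread between subunits, were added after seeing the data. The fitting was also run on simulated counts with known changes, in which all libraries of a run had the same spread. That run could therefore not test whether the single dose libraries vary like the DMSO pair. Promoter, coding and protein sequences were not used here.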

Additional observations from a re-analysis of the deposited data

How the results depend on the processing

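Numbers of subunits called are given below. With DESeq2, 0 were higher (monosome, 10 against 1 µM) and 1 lower in place of 1 and 3. It called 3 higher in disome at 10 µM, 0 at 1 µM, 3 and 0 for disome to mRNA at 10 and 1 µM, and 5 and 0 for disome to monosome. Of all rows, DESeq2 called 192 higher and 519 lower of 55409 in monosome against 1 µM. In disome, 1660 and 269 of 34606 were higher at 10 and 1 µM. The numbers were 2942 and 292 of 37503 for disome to mRNA, and 2090 and 303 of 35844 for disome to monosome. With rows of at least 10 CPM on average, 3 were lower in monosome at 10 µM and 1 against 1 µM, beside 3542 and 1669 of 13934 rows. Without a filter, 4 were higher for disome to monosome at 1 µM, beside 1518 of 59427 rows. With both doses as 1 group, counts were 0 higher and 0 lower in monosome, 1 higher in disome and in disome to mRNA, and 0 for monosome to mRNA and disome to monosome. That fit called 0 of all 55409 monosome rows, 0 of 35844 for disome to monosome and 1 of 50324 for monosome to mRNA. The 0 counts are therefore not particular to the subunits. It called 1551 of 34606 rows higher in disome and 1911 of 37503 for disome to mRNA. The joint fit of 12 libraries called 1 lower in mRNA and 1 lower in monosome at 10 µM, 0 higher and 0 lower in monosome against 1 µM, and 2 for disome to mRNA at 1 µM. Of all 36048 rows it called 811 lower in mRNA and 2744 lower in monosome at 10 µM. In monosome against 1 µM it called 378 higher and 311 lower, and for disome to mRNA at 1 µM 1297 higher.

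Leaving out 1 DMSO library in the joint fit gave 1 to 2 lower in mRNA at 10 µM, 1 to 1 against 1 µM, 0 to 0 in monosome in either direction and against either group, 5 to 5 and 2 to 4 in disome at 10 and 1 µM, and 2 to 2 against 1 µM. It gave 1 to 1 for monosome to mRNA at 10 µM, 5 to 7 and 2 to 4 for disome to mRNA at 10 and 1 µM, and 4 to 6 and 0 to 0 for disome to monosome. Each fit without a DMSO library left 1 kind of library without a replicate, so its spread came from the other kinds. Calls gained or lost there do not show dependence on 1 library alone. With rows paired by the alignment alone, 4 subunits could be tested: 4 were higher for disome to monosome at 10 µM, 1 at 1 µM, and 0 for monosome to mRNA, where TCP1 is not among them. Of 1336 values of single subunits under an alternative, 1206 kept their side of the threshold, 24 passed it and 106 no longer did. Most values were not called in the main fits, and most of the 1206 are values that stayed uncalled. The 106 come only from called values, so they are a larger share of the calls than of all values. The fit with both doses as 1 group enters under each dose. In 72 the sign changed, 0 of them called.

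The DMSO numbers are not tied to a shared culture or day in the labels. The deviations of DMSO 2 from DMSO 1 had Pearson's r of -0.118 (RNA-seq and monosome), 0.262 (RNA-seq and disome) and 0.0677 (monosome and disome) over 10014 rows. A replicate block changed 1 count of calls, disome to mRNA at 1 µM, from 1 to 2, where CCT4 passed with an adjusted p of 0.0248. TCP1 had 297 counts in the shallowest disome library. With TCP1 left out, which was added after seeing the data, the mean coefficient of variation between subunits in the DMSO libraries was 30.8% for mRNA, 25.4% for monosomes and 36.6% for disomes, in place of 28.4%, 31.4% and 43.4%.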
